A study of Mus musculus with 8 samples.

Results

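The genes described here are the 109 protein-coding genes whose RNA was lower in a mouse pro-T cell line given Runx1 WT and higher in the same line given Runx1 DN, each against a mock infection. They include 6 genes of the Notch pathway: the receptors Notch1 and Notch3, the feedback inhibitor Nrarp, the ubiquitin ligase Dtx1, the repressor Hes5 and the pre-T cell receptor gene Ptcra. With Satb1, whose libraries took no part in choosing the genes, all 6 of these rose, by 0.59 to 1.14 on the log2 scale, and over all 109 genes 24 rose and 7 fell, where 3.45% and 3.51% of the 10106 rows they were chosen from did.

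Each library held RNA of Scid.adh.2c2 cells, a transformed mouse line with the features of early T cell precursors, infected with a GFP-marked retrovirus and sorted 2 days later. The 8 libraries form 4 groups of 2, named by the virus: Mock, Runx1 WT, Runx1 DN and Satb1. All groups share the cell line, the viral infection and the sort, and each construct raised the count of its gene far above that in Mock. The Runx1 row averaged 129 CPM (counts scaled to a library total of 1000000) in Mock, 8378 CPM with Runx1 WT and 23199 CPM with Runx1 DN, and the Satb1 row averaged 367 CPM in Mock and 3659 CPM with Satb1. DN is not written out in the labels; for Runx proteins it usually means dominant negative, and how the construct was built is not given. Nor do the labels tell whether the 2 libraries of a group came from separate cultures, so the p-values cover only how far these libraries differ, which may be technical.

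Runx1 is a DNA-binding factor that both activates and represses genes in T cell precursors. Notch receptors are cut after binding a ligand, and their freed inner part joins the DNA-binding protein Rbpj in the nucleus to switch on target genes, a signal that T cell precursors need to commit to their lineage. Satb1 is a chromatin-binding protein abundant in thymocytes. Among the Notch targets are brakes on the pathway itself, such as Nrarp and Dtx1.

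The genes were chosen from group means of CPM by column total, as log2(mean CPM + 1): a Mock mean of at least 1 CPM, Runx1 WT minus Mock of -0.4 or less, and Runx1 DN minus Mock of 0.4 or more. Of 10106 protein-coding rows at or above 1 CPM in Mock, 2482 (24.6%) met the Runx1 WT threshold, 1452 (14.4%) met the Runx1 DN threshold and 109 (1.08%) met both. The mirrored pattern, higher with Runx1 WT and lower with Runx1 DN, held for 351 rows (3.47%). Because the choice used these values, the differences of the 109 genes with Runx1 WT and Runx1 DN are given as descriptions, with no test. Just inside the Runx1 WT threshold lay Ddit4 at -0.415, Rnf149 at -0.411 and Donson at -0.402, and just outside it 4930563E22Rik at -0.393, Nr6a1 at -0.390 and 1700029J07Rik at -0.388. At the Runx1 DN threshold, Mpzl1 at 0.404, Tmem237 at 0.403 and Zfp326 at 0.401 lay inside, and Bex2 at 0.399, Cmss1 at 0.397 and Chd5 at 0.394 outside. At the Mock threshold, Tead1 at 1.080 CPM, Scn2b at 1.078 CPM and Tnfaip2 at 1.005 CPM lay inside, and Slc2a4 at 0.943 CPM, Cldn4 at 0.867 CPM and A230065H16Rik at 0.859 CPM outside.

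The markers of the line were present: all 9 pro-T markers checked, among them Thy1, Il2ra, Rag1 and Bcl11b, stood above 1 CPM in Mock, with summed levels of 3612 and 3479 CPM. That sum was 4932 and 5068 CPM with Runx1 WT, 1038 and 995 CPM with Runx1 DN, and 4449 and 4348 CPM with Satb1. The single markers did not all follow the sum. From Mock to Runx1 WT, mean CPM went from 528 to 282 for Il2ra, 427 to 120 for Rag1 and 67.7 to 18.9 for Ptcra. The means of Thy1, Gata3, Cd3g, Bcl11b, Lck and Tcf7 were higher with Runx1 WT. With Runx1 DN, Ptcra stood higher at 105 CPM and Cd3g went from 148 to 156 CPM, while the other markers were lower. Markers of other lineages moved too. The summed level of 20 myeloid markers, of which 3 reached 1 CPM in Mock and 7 had no count there (Csf1r, Mpo and Elane among them), was 52.7 and 51.7 CPM in Mock, 227 and 221 CPM with Runx1 WT, 222 and 153 CPM with Runx1 DN, and 42.9 and 48.0 CPM with Satb1. For 18 NK and cytotoxic cell markers, 8 of them at 1 CPM or more in Mock, the sum was 197 and 232 CPM in Mock, 1686 and 1789 CPM with Runx1 WT, 137 and 130 CPM with Runx1 DN, and 170 and 199 CPM with Satb1. For 13 B lineage markers, 3 of them at 1 CPM or more in Mock and Pax5, Ebf1, Blnk and Ms4a1 at no count there, the sum was 64.9 and 77.2 CPM in Mock, 55.3 and 60.4 CPM with Runx1 WT, 223 and 224 CPM with Runx1 DN, and 45.9 and 55.6 CPM with Satb1. For 14 erythroid, mast cell and megakaryocyte markers, 5 of them at 1 CPM or more in Mock and 5, Hbb-b1 and Pf4 among them, without a count in any library, the sum was 615 and 592 CPM in Mock, 312 and 364 CPM with Runx1 WT, 350 and 358 CPM with Runx1 DN, and 452 and 553 CPM with Satb1. In these lists too, single markers did not all follow the sums. With Runx1 WT, 3 of the 5 B lineage markers tested with edgeR rose and 1 fell. Of the 8 erythroid, mast cell and megakaryocyte markers tested, 5 rose and 1 fell. Over all genes tested, 38.9% rose and 31.8% fell with Runx1 WT. The part of other cell types in the results below was not tested, and in bulk RNA fewer cells of a type and less RNA per cell cannot be told apart.

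**Figure D1:**
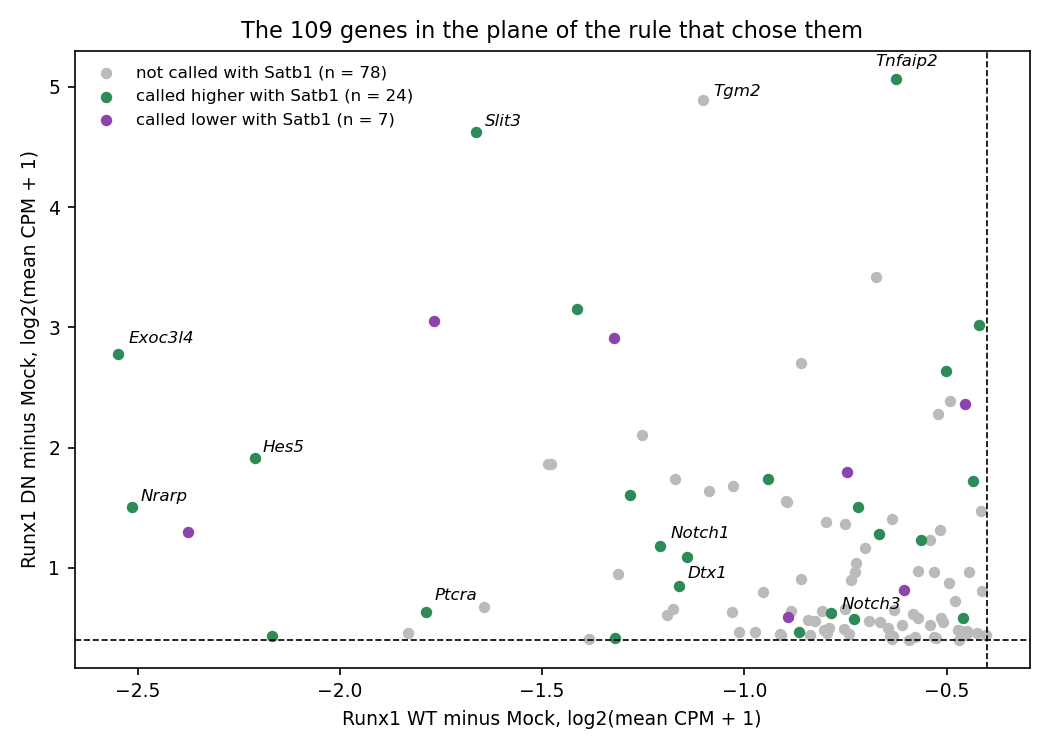
Each point is 1 of the 109 genes, all protein-coding with a Mock mean of at least 1 CPM. Other rows are not drawn. The x axis is Runx1 WT minus Mock and the y axis Runx1 DN minus Mock, both as differences in log2(mean CPM + 1). By the rule all 109 lie beyond -0.4 on the x axis and 0.4 on the y axis. They are coloured by their call with Satb1: 24 higher, 7 lower and 78 not called.

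Across the 109 genes, Runx1 WT minus Mock ran from -2.55 to -0.40 with a median of -0.75, and Runx1 DN minus Mock from 0.40 to 5.07 with a median of 0.73, in log2(mean CPM + 1). Both Runx1 WT libraries lay below both Mock libraries in 108 of the 109 genes, against 37.1% of all 10106 rows, and both Runx1 DN libraries lay above both Mock libraries in all 109, against 41.7%. The rule used these libraries, so nothing is read from these shares. The exception was Ddit4, an mTORC1 inhibitor induced by stress, at 168 and 448 CPM in Mock and 244 and 218 CPM with Runx1 WT. On this scale 15 genes were 2 or more above Mock with Runx1 DN and 5 were 2 or more below it with Runx1 WT, but a gene with a Mock mean under 3 CPM cannot lie 2 below Mock. As edgeR log2 fold changes, 17 were at 2 or more with Runx1 DN and 14 at -2 or less with Runx1 WT. Only 18 genes differed by at least 1 on both sides, and 17 stayed under 0.6 on both. On this scaling the median of all 10106 rows was 0.13 with Runx1 WT and 0.05 with Runx1 DN. TMM scaling moved these medians to -0.01 and -0.03, and all 109 genes kept both directions under TMM and under RLE scaling, though fewer of them met both thresholds, 84 and 79.

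Most of the genes were modestly expressed in Mock. Their Mock means ran from 1.00 to 745 CPM with a median of 11.2 CPM, and the median of the 10106 rows was 43.5 CPM. Per kilobase of exon, their median was 4.60 CPM per kb against 15.0 CPM per kb, and 23 of the 109 lay above the median of all rows. By Mock mean, 30 genes lay under 5 CPM (11 of them under 2 CPM), 41 between 5 and 20 CPM, 25 between 20 and 100 CPM and 13 at 100 CPM or more. The Notch genes stood apart from this low level: per kilobase, Nrarp at 186 CPM per kb was at the 96.5th percentile of all rows, Dtx1 at 130 CPM per kb at the 94.6th, Notch1 at 78.8 CPM per kb at the 89.8th and Ptcra at 53 CPM per kb at the 84.2th. Notch3 at 18.1 CPM per kb and Hes5 at 16.8 CPM per kb lay near the middle, at the 56.4th and 53.9th percentiles. Only Hmgn1, a nucleosome-binding protein, at 223 CPM per kb was above Nrarp among the 109, and Ddit4 at 184 CPM per kb and Bex3 at 175 CPM per kb followed it.

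The receptors of the pathway come first. Notch1 (mm9, chr2:26313422-26359342, minus strand), the main Notch receptor of T cell precursors, stood at 795 and 695 CPM in Mock, 340 and 304 CPM with Runx1 WT, 1748 and 1634 CPM with Runx1 DN, and 1808 and 1494 CPM with Satb1. The levels with Runx1 DN and with Satb1 overlapped, and both lay above every Mock library. Against Mock, Notch1 differed by -1.21 with Runx1 WT and 1.18 with Runx1 DN in log2(mean CPM + 1), and its edgeR log2 fold change with Satb1 was 1.14 ± 0.10 (SE, n = 2 libraries a group; adjusted p = 0.00012). Notch3 (mm9, chr17:32257838-32303797, minus strand), a second receptor of early thymocytes, stood at 136 and 150 CPM in Mock, 86.5 and 79.0 CPM with Runx1 WT, 220 and 222 CPM with Runx1 DN, and 252 and 241 CPM with Satb1. Both Satb1 libraries were above both Runx1 DN libraries. It differed from Mock by -0.78 with Runx1 WT and 0.62 with Runx1 DN, and rose with Satb1 by a log2 fold change of 0.77 ± 0.08 (adjusted p = 0.00025, edgeR).

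Nrarp and Hes5 are genes that Notch switches on directly in many tissues, and they showed some of the widest ranges among the 109. Nrarp (mm9, chr2:25036278-25038852, plus strand), a small ankyrin repeat protein that binds the Notch complex and limits it, stood at 459 and 499 CPM in Mock, 92.4 and 73.7 CPM with Runx1 WT, 1419 and 1298 CPM with Runx1 DN, and 938 and 925 CPM with Satb1. The groups were fully separate, in the order Runx1 WT, Mock, Satb1, Runx1 DN, and the Runx1 DN mean was 16.4 times the Runx1 WT mean. Nrarp differed from Mock by -2.51 with Runx1 WT and 1.5 with Runx1 DN, and its log2 fold change with Satb1 was 0.95 ± 0.11 (adjusted p = 0.00056, edgeR). Hes5 (mm9, chr4:154335032-154336480, plus strand), a basic helix-loop-helix repressor, stood at 22.7 and 19.8 CPM in Mock, 4.54 and 3.09 CPM with Runx1 WT, 90.0 and 75.8 CPM with Runx1 DN, and 40.4 and 35.4 CPM with Satb1. Its groups kept the same order without overlap, with a Runx1 DN mean 21.7 times the Runx1 WT mean. Hes5 differed from Mock by -2.21 with Runx1 WT and 1.91 with Runx1 DN, and rose with Satb1 by 0.83 ± 0.14 in log2 fold change (adjusted p = 0.0051, edgeR).

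Dtx1 (mm9, chr5:121130273-121161678, minus strand), a Deltex ubiquitin ligase that acts on Notch receptors, stood at 470 and 494 CPM in Mock, 235 and 195 CPM with Runx1 WT, 907 and 829 CPM with Runx1 DN, and 935 and 823 CPM with Satb1. As for Notch1, the libraries given Satb1 and Runx1 DN overlapped. It differed from Mock by -1.16 with Runx1 WT and 0.85 with Runx1 DN, and its log2 fold change with Satb1 was 0.86 ± 0.10 (adjusted p = 0.00074, edgeR). Ptcra (mm9, chr17:46892612-46900661, minus strand), which encodes the pre-T cell receptor alpha chain, stood at 69.1 and 66.2 CPM in Mock, 20.9 and 16.9 CPM with Runx1 WT, 112 and 99.1 CPM with Runx1 DN, and 104 and 101 CPM with Satb1. Its difference from Mock was larger with Runx1 WT than with Runx1 DN, at -1.79 and 0.63, and its log2 fold change with Satb1 was 0.59 ± 0.10 (adjusted p = 0.0056, edgeR). With the libraries numbered 2 of Mock and Satb1 left out, the Satb1 calls of Hes5 (adjusted p = 0.10) and Ptcra (adjusted p = 0.17) were lost. In every fit without a single library all 6 genes kept theirs.

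**Figure D2:**
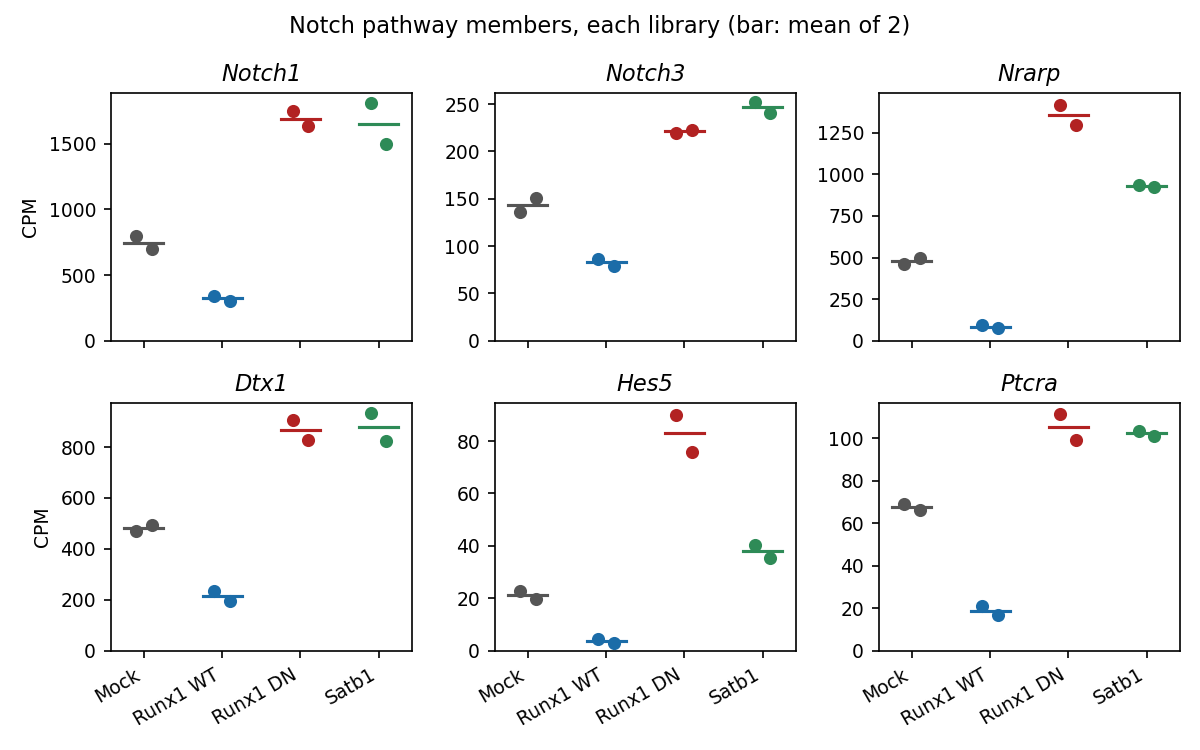
CPM of the 6 Notch pathway genes in each of the 8 libraries, by group, on linear axes that start at 0; bars are means of 2. In all 6 genes both Runx1 WT libraries lie below, and both Runx1 DN and both Satb1 libraries above, both Mock libraries. The shares of all 10106 rows that do so are 37.1%, 41.7% and 26.2%. The rule used the Runx1 WT, Runx1 DN and Mock libraries, so nothing is read from the Runx1 positions. Nrarp and Hes5 span 73.7 to 1419 CPM and 3.09 to 90.0 CPM.

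Promoters of 3 of these genes are printed to show the letters that Rbpj, the DNA-binding partner of Notch, is known to read, because 2 of the genes carry them near the start and the third, with the second most negative difference under Runx1 WT, does not. Each is 300 bases, from 250 before to 50 after the RefSeq start, 5′ to 3′ on the gene's strand, from RefSeq on GRCm38.p6, and capitals mark each match to TGGGAA on either strand (TTCCCA on the printed strand). Hes5 lies at chr4:154960673-154960972 (plus strand), Ptcra at chr17:46763663-46763962 (minus strand) and Nrarp at chr2:25180508-25180807 (plus strand).
Hes5: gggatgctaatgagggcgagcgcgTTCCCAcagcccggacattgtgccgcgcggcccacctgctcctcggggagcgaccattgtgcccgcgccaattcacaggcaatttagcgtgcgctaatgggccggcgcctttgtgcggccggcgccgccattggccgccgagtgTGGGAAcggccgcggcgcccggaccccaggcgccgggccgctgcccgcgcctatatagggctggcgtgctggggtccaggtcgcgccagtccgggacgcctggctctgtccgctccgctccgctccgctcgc
Ptcra: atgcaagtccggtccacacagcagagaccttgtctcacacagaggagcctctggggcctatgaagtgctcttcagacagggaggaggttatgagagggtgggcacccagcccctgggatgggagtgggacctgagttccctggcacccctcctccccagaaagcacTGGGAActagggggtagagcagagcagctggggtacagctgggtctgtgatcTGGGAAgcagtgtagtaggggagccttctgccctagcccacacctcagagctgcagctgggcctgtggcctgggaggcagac
Nrarp: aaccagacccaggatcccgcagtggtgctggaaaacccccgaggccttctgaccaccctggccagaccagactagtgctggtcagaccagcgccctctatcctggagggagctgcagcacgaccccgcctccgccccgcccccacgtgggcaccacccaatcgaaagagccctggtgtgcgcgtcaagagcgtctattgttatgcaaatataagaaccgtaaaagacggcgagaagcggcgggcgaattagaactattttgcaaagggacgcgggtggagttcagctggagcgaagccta
The Hes5 promoter holds matches at bases 25 to 30 and 169 to 174, and the Ptcra promoter at bases 167 to 172 and 219 to 224, counted from the first printed base. The Nrarp, Notch1, Notch3 and Dtx1 promoters did not hold these letters on either strand. The RUNX letters TGTGGT and TGCGGT were absent, on either strand, from these promoters and from those of Hes5 and Ptcra. None of the 3 motifs contains another.

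In the promoters of the 109 genes these letters stood at shares near those of all promoters. RefSeq promoters were found for 96 of them, 133 promoters in all. TGGGAA was present in 25.6% of these, in 22.6% of the promoters of all rows at 1 CPM or more in Mock and in 25.6% of all promoters in the table. TGTGGT or TGCGGT was present in 20.3%, 21.4% and 22.4%, and the combination of both kinds in 4.51%, 4.86% and 5.92%. Among the 32 promoters of 23 genes that rose with Satb1, the shares were 28.1% for TGGGAA and 18.8% for the RUNX letters. The combination stood in 9.38% of them, which is only 3 promoters. These are matches of short letters in a short window, not binding sites.

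Over the whole Notch pathway, genes moved both ways. Of 103 genes in 5 lists of Notch components and targets, 95 were tested in the edgeR fit over all 12699 genes, the 6 described above included. With Runx1 WT, 47 of the 95 rose and 22 fell, where 38.9% of all genes tested rose and 31.8% fell. With Runx1 DN, 30 rose and 23 fell, where 17.5% of all genes rose and 16.9% fell. With Satb1, 12 rose and 6 fell, where 3.28% of all genes rose and 3.09% fell. The 6 genes of the set, chosen on their Runx1 values, are 6 of the falls with Runx1 WT, of the rises with Runx1 DN and of the rises with Satb1, so the remaining 89 cannot serve as a comparison for the Runx1 groups. The 28 targets outside the 109 had 5 genes that rose with Satb1 (Lef1, Trib2, Il2ra, Igf1r and Adam19) and 3 that fell (Il7r, Ifngr1 and Tspan32). Of these 8 calls, those of Lef1, Trib2, Il7r and Tspan32 held in every fit without a single library. Il2ra was lost without either Mock or either Satb1 library (adjusted p of 0.078 to 0.13), Igf1r without the second Mock or the second Satb1 library (0.13 and 0.074), Adam19 without the first Mock or the second Satb1 library (0.12 in both), and Ifngr1 without the second Mock or the first Satb1 library (0.066 and 0.076).

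Several genes of the lists lay outside the 109. The receptor Notch2 stood at 112 and 116 CPM in Mock, 163 and 216 CPM with Runx1 WT, 88.5 and 99.8 CPM with Runx1 DN, and 91.4 and 84.5 CPM with Satb1, the reverse of Notch1 and Notch3 in both Runx1 groups. Its log2 fold changes were 0.61 ± 0.11 with Runx1 WT (adjusted p = 0.00076, edgeR) and -0.35 ± 0.12 with Runx1 DN (adjusted p = 0.038, edgeR); the second of these was lost, at adjusted p of 0.052 to 0.22, without either Mock or either Runx1 DN library, and at 0.10 with library-size scaling. Hes1, a repressor of the same family as Hes5 and a Notch target in T cell precursors, stood at 59.9 and 70.8 CPM in Mock, 91.9 and 85.9 CPM with Runx1 WT, 82.3 and 73.8 CPM with Runx1 DN, and 56.7 and 67.1 CPM with Satb1. Hes1 rose by a log2 fold change of 0.32 ± 0.12 with Runx1 WT (adjusted p = 0.036, edgeR), where Hes5 was lower, but without the first Mock library its adjusted p was 0.26, without either Runx1 WT library 0.16 and 0.051, without the first Runx1 DN library 0.050, with RLE scaling 0.066 and with DESeq2 0.060. Myc, the growth-promoting factor, stood at 682 and 623 CPM in Mock, 155 and 138 CPM with Runx1 WT, 524 and 469 CPM with Runx1 DN, and 655 and 628 CPM with Satb1. It thus fell with both Runx1 constructs, by log2 fold changes of -2.28 ± 0.09 (adjusted p = 2.9e-08, edgeR) and -0.48 ± 0.09 (adjusted p = 0.0021, edgeR).

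Other Notch genes lay outside the rule in other ways. Il2ra, the interleukin 2 receptor alpha chain, stood at 537 and 520 CPM in Mock, 275 and 290 CPM with Runx1 WT, 72.1 and 71.8 CPM with Runx1 DN, and 657 and 654 CPM with Satb1. It fell with Runx1 DN by -2.96 ± 0.07 in log2 fold change (adjusted p = 3.9e-09, edgeR) and was among the 5 that rose with Satb1 (0.30 ± 0.06, adjusted p = 0.017). The related repressors Hey1 and Heyl were too low in Mock for the rule. Hey1 stood at 0.111 and 0.303 CPM in Mock, 0.112 and 0.0377 CPM with Runx1 WT, 2.92 and 3.02 CPM with Runx1 DN, and 0.711 and 0.755 CPM with Satb1. Its Runx1 WT libraries were at or under the floor of 3 counts, and it rose with Runx1 DN (adjusted p = 6.1e-05, edgeR) but did not pass with Satb1 (1.74 ± 0.45, adjusted p = 0.052). Heyl, under the floor in Mock and with Runx1 WT, rose with Runx1 DN to 1.31 and 2.43 CPM (adjusted p = 0.00014, edgeR) and stood at 0.203 and 0.0907 CPM with Satb1 (adjusted p = 0.46). The Notch receptor Notch4, at 0.591 and 1.15 CPM in Mock, had a mean of 0.872 CPM there, under the rule's level. It also missed the Runx1 WT threshold: at 1.67 and 1.47 CPM, both Runx1 WT libraries lay above both Mock libraries. Notch4 stood at 20.2 and 18.2 CPM with Runx1 DN (adjusted p = 6.5e-07, edgeR).

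**Figure D3:**
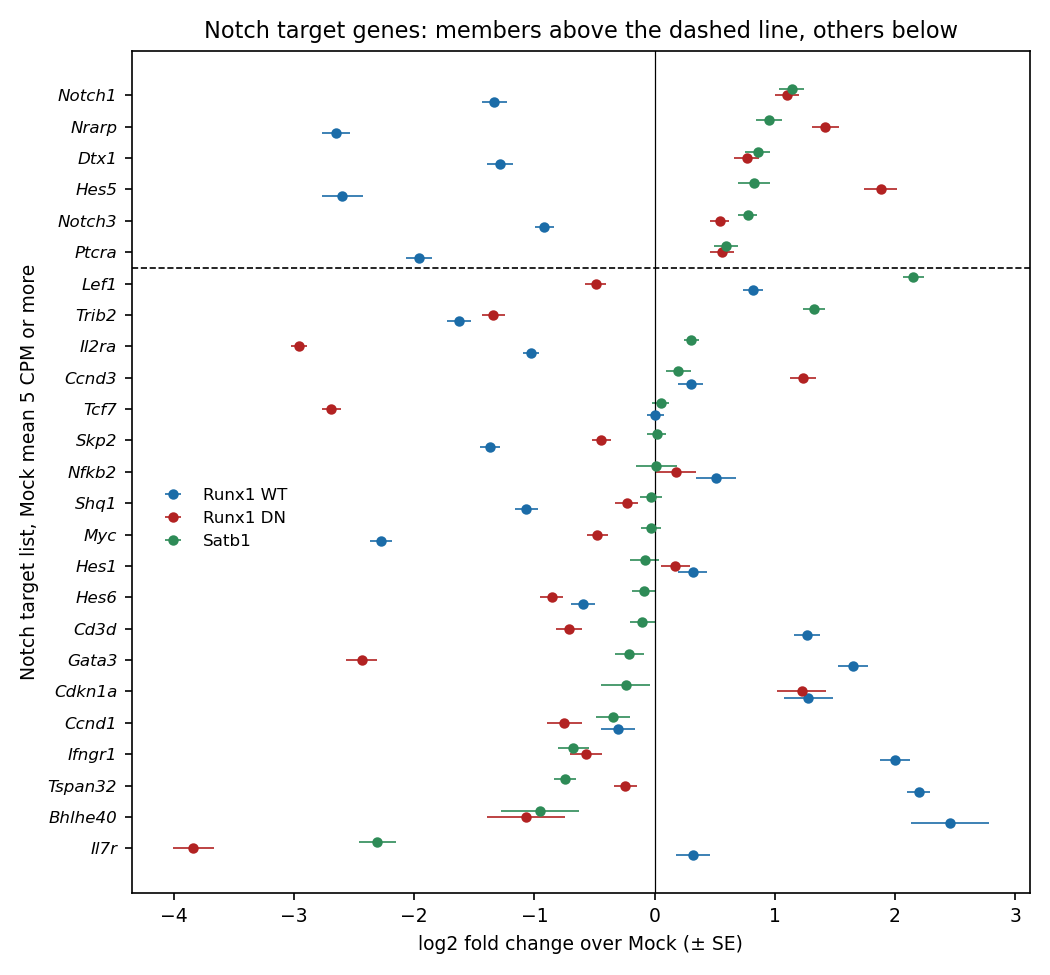
The 25 genes of the Notch target list with a Mock mean of at least 5 CPM, 19 of them outside the 109 genes, with edgeR log2 fold changes against Mock for Runx1 WT, Runx1 DN and Satb1. The 6 genes of the set are left of zero with Runx1 WT and right of it with Runx1 DN, while Il2ra and Myc lie left of zero with both Runx1 constructs.

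Beyond Notch, the genes were sorted by known function after they had been found. The matrix, adhesion and secreted proteins, 19 genes, held several of the strongest differences, and 10 of them were at least 1 above Mock with Runx1 DN. Slit3, a secreted guidance protein, stood at 4.14 and 4.95 CPM in Mock, 0.670 and 0.830 CPM with Runx1 WT, 136 and 136 CPM with Runx1 DN, and 18.6 and 21.5 CPM with Satb1. Tnc, the matrix protein tenascin C, stood at 2.44 and 2.79 CPM in Mock, 0.261 and 0.453 CPM with Runx1 WT, 30.2 and 32.1 CPM with Runx1 DN, and 4.47 and 6.71 CPM with Satb1. Itga9, an integrin subunit, stood at 19.1 and 16.5 CPM in Mock, 6.40 and 6.68 CPM with Runx1 WT, 22.8 and 25.5 CPM with Runx1 DN, and 54.3 CPM in both Satb1 libraries. Slit3 and Tnc were highest with Runx1 DN, and Itga9 was highest with Satb1. With Satb1, 7 of the 19 rose (Slit3, Lrrc4b, Itga9, Thbs3, Mcam, Tnc and Prtg), 3 fell (Sfrp5, Osm and Ctnnd2) and 9 were not called. Of all 10106 rows, 3.45% rose and 3.51% fell.

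Of the others in the group, Lrrc4b, a synaptic adhesion protein, stood at 1.88 and 2.37 CPM in Mock, 1.12 and 1.51 CPM with Runx1 WT, 8.85 and 9.73 CPM with Runx1 DN, and 7 and 7.25 CPM with Satb1. Ctnnd2, a delta catenin, stood at 8.60 and 7.71 CPM in Mock, 2.79 and 2.53 CPM with Runx1 WT, 61.4 and 74.6 CPM with Runx1 DN, and 5.04 and 5.14 CPM with Satb1. Both were far higher with Runx1 DN than in Mock, but with Satb1 Lrrc4b lay above Mock and Ctnnd2 below it. Osm, the cytokine oncostatin M, stood at 9.57 and 11.2 CPM in Mock, 5.10 and 5.17 CPM with Runx1 WT, 15.2 and 17.2 CPM with Runx1 DN, and 6.02 and 6.86 CPM with Satb1.

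Within the same group, Tgm2, a protein-crosslinking transglutaminase, had the second largest difference with Runx1 DN, at 4.89. It stood at 6.06 and 11.5 CPM in Mock, 2.83 and 4.26 CPM with Runx1 WT, 254 and 323 CPM with Runx1 DN, and 7.61 and 20.5 CPM with Satb1. Complement C3 stood at 0.776 and 1.79 CPM in Mock, 0.335 and 0.528 CPM with Runx1 WT, 21.9 and 24.8 CPM with Runx1 DN, and 0.508 and 1.18 CPM with Satb1. In both genes the 2 Mock libraries differed widely, and neither passed the Satb1 test (adjusted p = 0.45 for Tgm2 and 0.52 for C3, edgeR). Sfrp5, a secreted Wnt inhibitor, stood at 7.72 and 8.65 CPM in Mock, 0.707 and 0.830 CPM with Runx1 WT, 18.9 and 24.2 CPM with Runx1 DN, and 3.59 and 4.44 CPM with Satb1, so its Satb1 libraries lay below Mock and above Runx1 WT. Prtg, an immunoglobulin-family cell surface protein, was lower by -2.17 with Runx1 WT but only 0.43 higher with Runx1 DN. Of 15 stromal, epithelial and endothelial markers, 3 reached 1 CPM in Mock and 9 had no count there, among them Col3a1, Fn1, Pdgfra, Krt8 and Epcam. Their summed level, 291 and 278 CPM in Mock, was 562 and 555 CPM with Runx1 WT, 157 and 161 CPM with Runx1 DN, and 357 and 369 CPM with Satb1. Single markers did not all follow this sum. With Runx1 DN, 3 of the 5 markers tested in the edgeR fit rose and 2 fell, with a median log2 fold change of 1.77. Over all genes tested, 17.5% rose and 16.9% fell with Runx1 DN.

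The cytoskeleton and membrane traffic group held 17 genes and the gene with the most negative difference under Runx1 WT, -2.55. Exoc3l4 (mm9, chr12:112655641-112669891, plus strand), a relative of the exocyst subunit Exoc3, stood at 15.0 and 17.3 CPM in Mock, 1.64 and 2.23 CPM with Runx1 WT, 116 and 118 CPM with Runx1 DN, and 27.2 and 30.8 CPM with Satb1. Tnfaip2 (mm9, chr12:112680872-112693229, plus strand), a TNF-inducible gene of the same sequence family, starts 10981 bases beyond its end on the same strand. Tnfaip2 stood at 0.886 and 1.12 CPM in Mock, 0.261 and 0.340 CPM with Runx1 WT, 67.8 and 64.6 CPM with Runx1 DN, and 5.58 and 6.01 CPM with Satb1. Its difference of 5.07 with Runx1 DN was the largest of the 109, although its Mock mean was the lowest. The 2 neighbours also rose together with Satb1, by log2 fold changes of 0.84 ± 0.12 for Exoc3l4 (adjusted p = 0.0018, edgeR) and 2.50 ± 0.16 for Tnfaip2 (adjusted p = 1.5e-05, edgeR).

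Other pairs of the 109 lay close together, at 12.8 kb for Cdh1 and Tango6 on chromosome 8, 21.3 kb for C3 and Trip10 on chromosome 17, and 82.8 kb for Notch1 and Egfl7 on chromosome 2, with Nrarp 1.27 Mb from Notch1. Egfl7, a secreted protein of endothelial cells that can bind Notch receptors, stood at 7.16 and 7.47 CPM in Mock, 2.75 and 2.60 CPM with Runx1 WT, 13.2 and 11 CPM with Runx1 DN, and 8.32 and 9.64 CPM with Satb1, and did not pass the Satb1 test (0.29 ± 0.15, adjusted p = 0.33, edgeR). The spans of 19 of the 109 genes overlap another row, as Bysl does Ccnd3 and Nfix does Lyl1. The library kit does not mark strand, so reads from exon bases that such neighbours share cannot be told apart. Spans include introns, and whether the exons overlap was not checked.

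In the rest of the cytoskeleton group, Myo7a, a myosin motor of hair cells, and Synpo2l, an actin-binding protein, went opposite ways with Satb1. Myo7a stood at 6.54 and 6.56 CPM in Mock, 2.23 and 3.62 CPM with Runx1 WT, 26.3 and 22.1 CPM with Runx1 DN, and 47.5 and 50.0 CPM with Satb1, the highest Satb1 log2 fold change of the 109 at 2.89 ± 0.16 (adjusted p = 5.5e-06, edgeR). Synpo2l stood at 6.76 and 6.98 CPM in Mock, 1.23 and 1.40 CPM with Runx1 WT, 63.9 and 64.5 CPM with Runx1 DN, and 4.30 and 4.65 CPM with Satb1. Ppfia2, a liprin that organises synaptic contacts, stood at 1.99 and 2.06 CPM in Mock, 0.856 and 0.755 CPM with Runx1 WT, 7.41 and 11.6 CPM with Runx1 DN, and 0.203 and 0.574 CPM with Satb1. Thus 2 of the 17 rose with Satb1 (Myo7a and Exoc3l4), 2 fell (Synpo2l and Ppfia2) and 13 were not called. The shares over all 10106 rows were 3.45% and 3.51%.

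Receptors and signalling proteins made up 19 genes, of which 4 rose with Satb1 and 1 fell, against 3.45% and 3.51% of all 10106 rows. Besides Tnfaip2, those that rose were Gpr83, Hunk and Ick. Gpr83, a G protein-coupled receptor, stood at 2.14 and 2.09 CPM in Mock, 0.521 and 0.906 CPM with Runx1 WT, 3.13 and 3.50 CPM with Runx1 DN, and 8.90 and 7.77 CPM with Satb1. Hunk, a serine/threonine kinase, stood at 8.12 and 8.50 CPM in Mock, 3.24 and 3.21 CPM with Runx1 WT, 18.4 and 19.3 CPM with Runx1 DN, and 30.3 and 24.3 CPM with Satb1. In both genes the Satb1 libraries lay above the Runx1 DN libraries. Adcy9, an adenylate cyclase, fell with Satb1: it stood at 2.66 and 3.64 CPM in Mock, 1.34 and 2.11 CPM with Runx1 WT, 6.01 and 6.63 CPM with Runx1 DN, and 1.59 and 1.48 CPM with Satb1. Socs3, a brake on cytokine signalling, stood at 34.6 and 24.5 CPM in Mock, 22.8 and 17.5 CPM with Runx1 WT, 57.7 and 59.4 CPM with Runx1 DN, and 41.2 and 32.3 CPM with Satb1, and was not called with Satb1 (adjusted p = 0.36, edgeR).

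Of 13 transcription and chromatin genes, Ets2 and Prox1 rose with Satb1 and the other 11 were not called. Over all 10106 rows, 3.45% rose and 3.51% fell. Ets2, an ETS family factor, stood at 31.4 and 31.9 CPM in Mock, 18.9 and 20.3 CPM with Runx1 WT, 81.1 and 75.9 CPM with Runx1 DN, and 46.5 and 39.0 CPM with Satb1. Prox1, a homeobox factor, stood at 64.4 and 55.4 CPM in Mock, 34.2 and 46.3 CPM with Runx1 WT, 124 and 160 CPM with Runx1 DN, and 106 and 81.2 CPM with Satb1. Both were highest with Runx1 DN. Tead1, a partner of the Hippo pathway coactivators, stood at 0.886 and 1.27 CPM in Mock, 0.484 and 0.415 CPM with Runx1 WT, 7.15 and 11.1 CPM with Runx1 DN, and 0.609 and 0.332 CPM with Satb1. Nfil3, a basic leucine zipper factor of innate lymphoid cells, stood at 7.57 and 15.5 CPM in Mock, 5.88 and 6.26 CPM with Runx1 WT, 18.6 and 16.2 CPM with Runx1 DN, and 13.6 and 22.7 CPM with Satb1. The Mock and Satb1 libraries of Nfil3 overlapped. The abundant Hmgn1 stood at 259 and 272 CPM in Mock, 192 and 179 CPM with Runx1 WT, 414 and 384 CPM with Runx1 DN, and 283 and 302 CPM with Satb1, a Satb1 log2 fold change of 0.13 ± 0.08 that did not pass (adjusted p = 0.44, edgeR).

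The genome maintenance and division genes, 8 in all, had no gene called with Satb1, where 3.45% of the 10106 rows rose and 3.51% fell. Among the 8 were Mdc1, a scaffold of the DNA damage response, Dsn1, a kinetochore subunit, and Donson, a replication fork protein. Their differences from Mock ran from -1.03 to -0.40 with Runx1 WT and from 0.44 to 0.97 with Runx1 DN, and their Satb1 log2 fold changes from -0.29 to 0.12. The 5 genes of RNA and protein handling, Ipo13, Bysl, Exosc5, Rnf149 and Tango6, were likewise not called with Satb1. Their log2 fold changes lay between -0.08 and 0.26. At the shares called over all rows, few or no calls would fall in groups this small, so nothing is read from their absence.

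Metabolism and transport accounted for 12 genes, of which 2 rose and 1 fell with Satb1, against 3.45% and 3.51% of all 10106 rows. Acer2, an alkaline ceramidase, stood at 10.9 and 11.4 CPM in Mock, 2.46 and 2.38 CPM with Runx1 WT, 15.3 and 16.2 CPM with Runx1 DN, and 10.0 and 11.4 CPM with Satb1. Its difference lay mostly on the Runx1 WT side, at -1.83 against 0.46. Gapdhs, a glycolytic enzyme otherwise found in sperm, stood at 1.22 and 1.61 CPM in Mock, 1.00 and 0.604 CPM with Runx1 WT, 19.9 and 17.4 CPM with Runx1 DN, and 3.32 and 3.08 CPM with Satb1. Scn2b, a sodium channel subunit, stood at 1.03 and 1.12 CPM in Mock, 0.335 and 0.604 CPM with Runx1 WT, 9.82 and 14.0 CPM with Runx1 DN, and 3.99 and 4.14 CPM with Satb1. These 2 genes rose with Satb1. Cybb, the catalytic subunit of the phagocyte NADPH oxidase, stood at 1.03 and 1.30 CPM in Mock, 0.372 and 0.792 CPM with Runx1 WT, 8.21 and 12.1 CPM with Runx1 DN, and 0.0677 and 0.302 CPM with Satb1, where the first library was under its floor of 3 counts (0.102 CPM).

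A last group of 5 rows on the X chromosome, Slxl1, Gm14625, Gm16404, Gm16405 and Gm16430, belongs to the Slx-like multicopy family of male germ cells. They differed from Mock by -1.49 to -1.03 with Runx1 WT and by 1.64 to 1.86 with Runx1 DN, and their Satb1 log2 fold changes, -0.61 to -0.46, did not pass. The rows Gm16405 and Gm16430 overlap and had nearly the same counts, 154 and 156 in the first Mock library. These 5 rows are uncertain, because reads of near-identical copies cannot be assigned to 1 of them, and they may stand for fewer loci. A further 5 genes were placed in no group: 3110043O21Rik, Begain, Bex3, Fam169a and Fam46d. Of these, Begain rose with Satb1 (1.13 ± 0.23, adjusted p = 0.014, edgeR), and the abundant Bex3 stood at 159 and 168 CPM in Mock, 126 and 110 CPM with Runx1 WT, 237 and 218 CPM with Runx1 DN, and 150 and 155 CPM with Satb1.

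**Figure D4:**
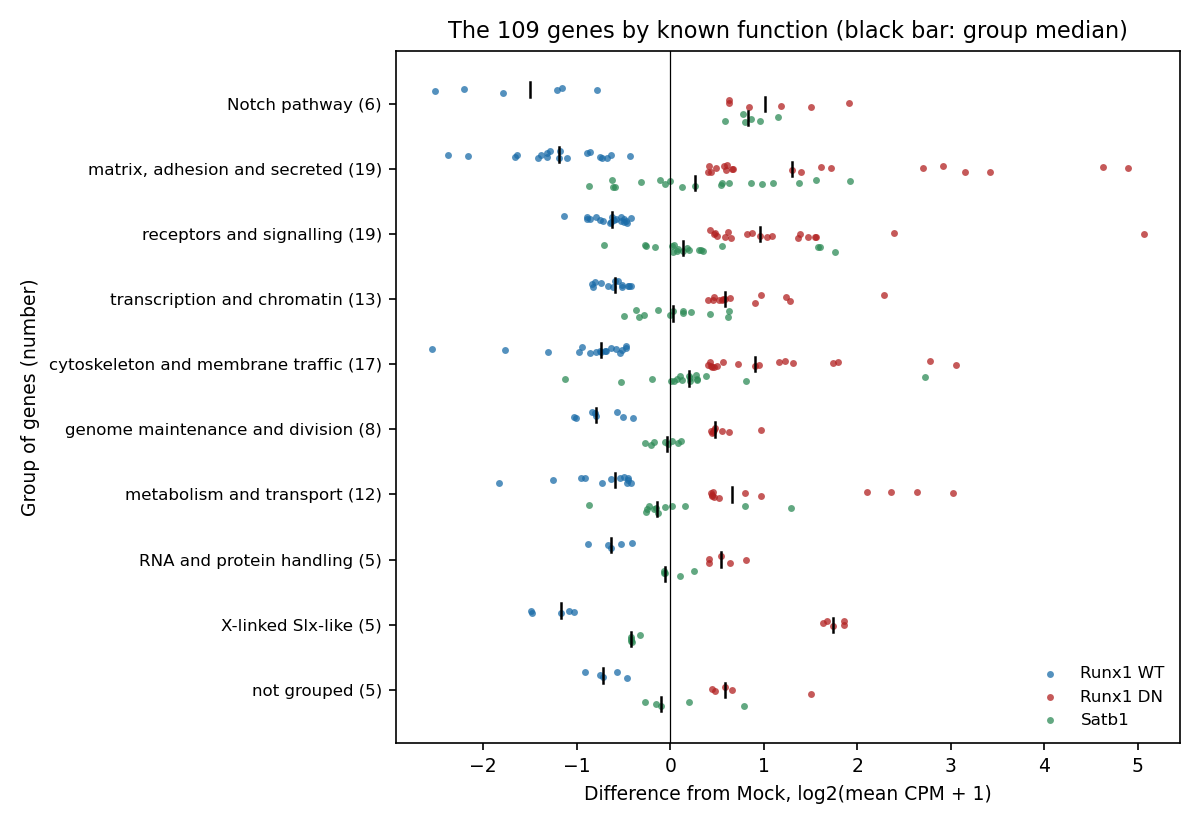
The 109 genes by functional group, with each gene's Runx1 WT minus Mock, Runx1 DN minus Mock and Satb1 minus Mock. The Notch group lies above Mock with Satb1 in all 6 genes. The genome maintenance group (8 genes) and the Slx-like rows (5) have no gene called with Satb1. Of all 10106 rows, 3.45% rose and 3.51% fell, so nothing is read from the lack of calls in groups this small.

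Over the 109 genes together, 24 rose with Satb1 and 7 fell, in the edgeR fit with 4 residual degrees of freedom and Benjamini-Hochberg adjustment over 12699 genes. Among the 10106 rows from which they were chosen, 3.45% rose and 3.51% fell. The share that rose was thus above the background, and the share that fell was nearer to it. The Satb1 libraries played no part in the choice, but the Mock libraries of this contrast did. Of the 351 genes with the mirrored pattern, 45 rose (12.8%) and 66 fell (18.8%), and whether the 2 sets differ was not tested. The median Satb1 log2 fold change was 0.07 over the 109 genes and -0.01 over the 10106 rows. Single genes lay on both sides of these medians. An unadjusted edgeR p under 0.05 was found for 48 of the 109. The same held for 1957 of the 10106 rows and for 195 of the 351 mirrored genes. Both Satb1 libraries lay above both Mock libraries in 41 genes, against 26.2% of all 10106 rows, and below both in 32, against 24.7%. By size, 27 genes were at least 0.4 above Mock with Satb1 in log2(mean CPM + 1), where 3.77% of all 10106 rows were, and 13 at least 0.4 below it, where 4.55% were. In the authors' deposited table, 27 of the 109 genes were higher and 8 lower with Satb1 at the authors' adjusted p-value under 0.05. The share called over all rows of that table was not counted, so nothing is read from these 2 counts.

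The largest rises with Satb1, after Myo7a and Tnfaip2, were those of Slit3 at 2.13 ± 0.13 (adjusted p = 8.5e-06), Gpr83 at 1.97 ± 0.20 (adjusted p = 0.00023), Scn2b at 1.90 ± 0.26 (adjusted p = 0.0016), Lrrc4b at 1.73 ± 0.19 (adjusted p = 0.00036), Hunk at 1.70 ± 0.12 (adjusted p = 2.1e-05) and Itga9 at 1.60 ± 0.09 (adjusted p = 7.7e-06), as edgeR log2 fold changes. In 8 of the 24 genes that rose, Notch3, Dtx1, Itga9, Gpr83, Prtg, Myo7a, Hunk and Mcam, the Satb1 mean was above the Runx1 DN mean. Slit3 and Tnfaip2, in contrast, had Satb1 means far below their Runx1 DN means. The difference between Satb1 and Runx1 DN was not tested.

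Falls with Satb1 were seen in Cybb at -2.60 ± 0.56 (adjusted p = 0.022), Ppfia2 at -2.35 ± 0.42 (adjusted p = 0.0079), Adcy9 at -1.05 ± 0.26 (adjusted p = 0.039), Sfrp5 at -1.03 ± 0.18 (adjusted p = 0.0068), Osm at -0.70 ± 0.14 (adjusted p = 0.017), Ctnnd2 at -0.68 ± 0.13 (adjusted p = 0.013) and Synpo2l at -0.62 ± 0.11 (adjusted p = 0.0091), by the same test. Cybb, Ppfia2 and Adcy9 had Satb1 means below even their Runx1 WT means. Of these 7 calls, Ppfia2 alone held in each of the 8 fits without a single library. Without the first Satb1 library 1 of the 7 held, and without the second Mock library 2 did, with adjusted p between 0.052 and 0.27 for those lost. Adcy9 was also lost without the second Satb1 library (0.15) or either Runx1 DN library (0.061 and 0.063), and Ctnnd2 without the first Mock library (0.075). Of the 24 rises, 18 held in all 8 fits, and Gapdhs, Prtg, Ets2, Begain, Prox1 and Tnc were lost in some, with adjusted p between 0.052 and 0.27. The libraries whose removal ended a rise were either of Mock or either of Satb1, which left 18 and 19 of the 24 without the first and the second Mock library, and 19 and 22 without the first and the second Satb1 library.

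**Figure D5:**
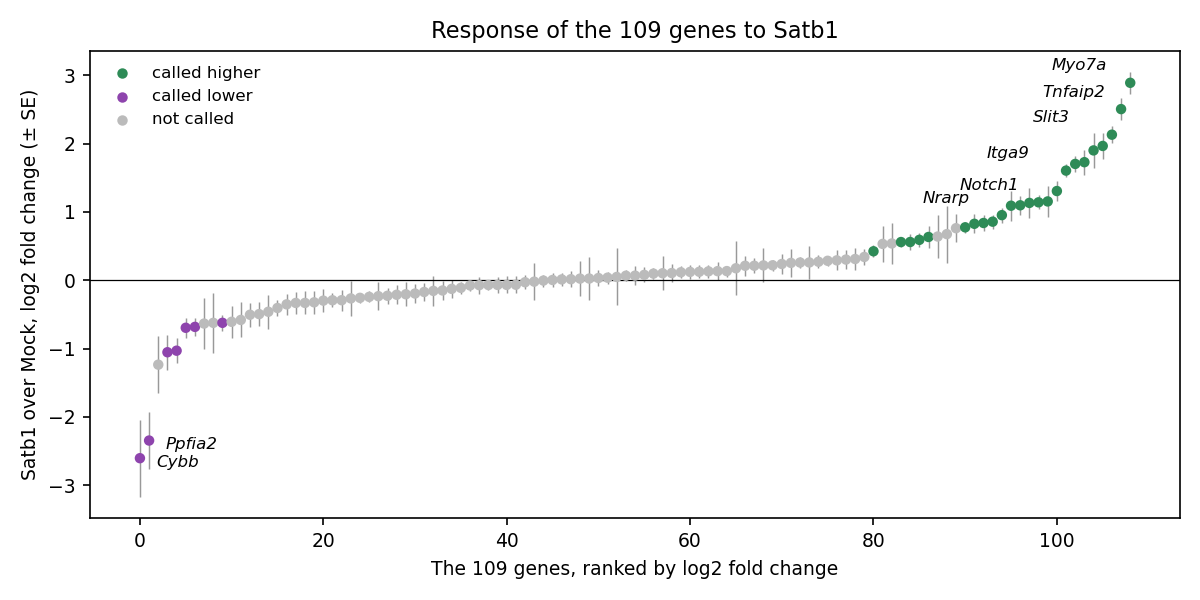
The 109 genes ranked by edgeR log2 fold change with Satb1 against Mock, with standard errors, coloured by call. Values run from -2.60 (Cybb) to 2.89 (Myo7a), with 24 genes called higher, 7 called lower and the remaining 78 around a median of 0.07 for the whole set.

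A few genes moved with replicate as well as with group. The 24 genes of a hypoxia list were higher in the second than in the first Mock library in 23 cases, with a median difference of 0.845 in log2(CPM + 1), and in 23 cases with a median of 1.06 in the Satb1 libraries. The medians were -0.051 and 0.093 in the Runx1 WT and Runx1 DN libraries. Among the 109 genes the 2 Mock libraries differed by 0.4 or more in 8: C3, Chn1, Ddit4, Nfil3, Shc4, Socs3, Tgm2 and Vegfa. The 2 Satb1 libraries differed that much in 12 of the 109, the Runx1 WT libraries in 8 and the Runx1 DN libraries in 6. The shares over all rows were not counted. Vegfa, the angiogenic growth factor induced by low oxygen, stood at 68.3 and 142 CPM in Mock, 31.7 and 34.3 CPM with Runx1 WT, 155 and 183 CPM with Runx1 DN, and 41.5 and 94.6 CPM with Satb1. Its Satb1 log2 fold change of -0.63 ± 0.38 did not pass (adjusted p = 0.43, edgeR). Ddit4 stood at 901 and 809 CPM with Runx1 DN and 241 and 459 CPM with Satb1, and its 2 Mock libraries were further apart than its Mock and Runx1 WT means. What the replicate difference contributed to these genes was not tested.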

How the data were processed

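RNA was sequenced from 8 libraries of 1 cell line, with totals of 23624498 to 33093330 counts per library; 3 counts, taken as the detection floor, equal 0.0907 to 0.127 CPM. The deposited count columns are raw counts per gene, made with HOMER over exons (options count exons, noadj and condenseGenes, rna mm9), per the file headers. Per the file headers, the deposited table also holds the authors' log2 fold changes, p-values and adjusted p-values; the exon length per row comes from the same table. The submitters' processing notes name the tools HOMER, edgeR 3.6.8, RSEM 1.2.25, STAR 2.4.0 and Trimmomatic 033, and the builds mm9 and NCBIM37. How reads shared by overlapping rows or near-identical copies were assigned is not given in the sources used here.

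From the counts, CPM by column total gave the rule's values. Tests used edgeR 4.0.16 in R 4.3.3 (quasi-likelihood, TMM, filterByExpr, all 8 libraries, 12699 genes, two-sided, Benjamini-Hochberg threshold 0.05); Satb1 against Mock was the only contrast tested for the 109 genes. The procedure was tested on simulated data in which every gene had the same spread and only the Satb1 libraries held changed genes. Those data had no shift between replicates, so nothing about the calls reported here is read from that test. Each SE of an edgeR fold change is the absolute log2 fold change divided by the square root of the test's F statistic. Its spread was estimated over all 8 libraries, not from 2 libraries alone. A fold change on log2(mean CPM + 1) understates the change of low genes. The members, gene lists and tests were chosen with earlier results of these data known, and the functional groups after the members were found. Named genes follow a rule: the 8 lowest with Runx1 WT, the 8 highest with Runx1 DN, the 8 with the highest Mock mean, up to 8 called each way with Satb1, the 3 on each side of each threshold, Nrarp, Hes5 and members of fixed lists; others, the list genes outside the set included, were named after their values were seen. Promoters are RefSeq's on GRCm38.p6, matched by symbol, and were not mixed with the mm9 coordinates of the table. Alternatives were RLE and library-size scaling, other filters, DESeq2 1.42.0, fewer groups or libraries, a replicate block and other rule thresholds.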

Additional observations from a re-analysis of the deposited data

How the results depend on the processing

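Moving both thresholds of the rule to 0.3, 0.5 or 0.6 gave 192, 69 and 49 genes in place of 109. Other settings gave between 79 (Mock mean of 5 CPM or more) and 124 (0.5 CPM or more): 98 with TMM and 97 with RLE scaling, and 97 to 122 without any 1 library. The rule met in the libraries numbered 1 and again in those numbered 2 left 70 of the 109. The Satb1 rises among the 109, 24 in the fit as reported, were 15 without the Mock and Satb1 libraries numbered 2, and 18 to 26 without any 1 library. The falls, 7 as reported, were 4 with the Mock and Satb1 libraries only, 2 without both libraries numbered 2, and 1 to 7 without any 1 library. Over all genes, the rises and falls, 416 and 392, were 152 and 162 without both libraries numbered 2, and 227 to 432 and 193 to 407 without any 1 library. With a replicate block they were 630 and 635, and among the 109 genes 26 and 10. Same-numbered deviations correlated at 0.39 between Mock and Satb1 and at 0.07 to 0.19 between other groups; with 2 pairs the numbers were not taken to pair the samples. The median Satb1 log2 fold change of the 109 ran from 0.029 to 0.099 without any 1 library. Under all 17 alternatives, 15 rises, 1 fall (Ppfia2) and 68 genes without a call kept their call; no named gene with a call reversed. The cause of these shifts was not tested. Genes under 2 CPM in Mock rest on few counts, and differences there are limited by depth.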
